A study of Mus musculus with 4 samples.

Results

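The solute carriers of families 1 to 22 are membrane proteins that move sugars, amino acids, ions, vitamins and small organic acids across cell membranes. They were examined here in posterior tissue of mouse embryos carrying mutations of the caudal homeobox genes. Members were the genes whose name in the array files begins with Slc, a family number from 1 to 22 and a member number, with Slc2a1 left out and with grouping by family number. The rule found 166 genes, measured by 266 probes, among 27845 genes on the arrays. Because only the start of the name was read, 4 members are not named as carriers: the adaptor proteins Slc9a3r1 and Slc9a3r2, the carrier-binding protein gene Slc4a1ap and Slc7a6os, a gene beside Slc7a6. No gene named for family 21 was found.

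Cdx2+/-Cdx4-/- embryos, heterozygous for the loss of Cdx2 and lacking Cdx4, were set beside wildtype embryos of 5 to 6 somites. Tissue behind the last somite boundary was pooled from 10 embryos of each genotype. Mutant and wildtype RNA competed on 4 Agilent arrays of 2 colours, all on 1 slide and titled as 2 replicates with a dye swap each. They are called array 1 (replicate 1), array 2 (its dye swap), array 3 (replicate 2) and array 4 (its dye swap). Separate pools for the 2 replicates are not stated in the labels. The p-values then measure the spread between these samples, which may be technical.

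The labels do not settle the direction of the ratios. The Cy5 over Cy3 log2 ratio of Cdx4 was -2.59 and -2.11 on arrays 1 and 2 and 2.82 and 2.42 on arrays 3 and 4, although the labels swap the dyes within each of these pairs. Over all probes, arrays 1 and 3, which are labelled alike, correlated at r = -0.363, and arrays 2 and 4 at r = -0.377. Cdx2, the other gene altered in the mutant, was lower in the same RNA as Cdx4 on all 4 arrays, at -0.77, -0.50, -0.45 and -0.45 (limma adjusted p = 0.000715 after the alignment described next). Each array was therefore turned so that Cdx4 is negative on it. The ratios below are these aligned log2 ratios: the RNA with less Cdx4 (Cdx4-low RNA) over the RNA with more (Cdx4-high RNA). By the labels of arrays 1 and 4 the Cdx4-low RNA is the mutant, and by those of arrays 2 and 3 it is the wildtype, where every sign below turns and higher and lower change places.

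Many solute carriers, though not all, are secondary transporters that couple the movement of one solute to a sodium, proton or substrate gradient. In the early embryo, nutrients reach the cells through the epithelium of the visceral endoderm, before a placental circulation is in place. Family numbers follow sequence and substrate: sugars in families 2 and 5, amino acids in families 1, 6 and 7, monocarboxylates such as lactate in family 16, and organic ions in family 22.

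Of the 166 genes, 90 were tested, because at least 1 of the 2 RNAs gave a signal well above background on each of the 4 arrays. A further 32 were above background on some arrays, and 44 on none. The share tested was 54.2%, beside 53.6% of all genes. Neurotransmitter and amino acid transporters of family 6 were mostly dim, with 13 of 19 not tested, whereas all 3 sodium-calcium exchangers of family 8 were tested. All further counts cover the tested genes only.

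Of the 90 genes, 8 were lower and 1 was higher in the Cdx4-low RNA (limma, adjusted p under 0.05 over 14921 genes). With the sign turned, 8 would be higher and 1 lower. The 8 lower genes make 8.89% of the members tested, beside 4.42% lower among all genes. The 1 higher gene makes 1.11%, beside 3.25%. At an unadjusted p under 0.05, 14 members were lower and 2 higher. The share of all genes at that threshold is not given, so these counts show no trait particular to the members. The 14 include Slc14a1, whose signal in the Cdx4-low RNA was not above background and whose p-values do not support a change. The lower genes were Slc13a4, Slc2a2, Slc7a9, Slc16a3, Slc16a6, Slc1a5, Slc7a8 and Slc4a7, and the higher one was Slc2a4. All 9 calls ended with signs as labelled, with median centring instead of loess and without the filter on dim probes. Median centring moved the median of all genes to 0.277, and Slc16a3 and Slc4a7 then lay above 0, at 0.0919 and 0.0522, though below that median. In bulk tissue, fewer cells of a type and less RNA per cell cannot be told apart. In these values no member differed by 2-fold or more, and 86 of the 90 had a log2 ratio of 0.5 or less in size. In the authors' deposited series table, which holds the scanner software's own ratios, 2 members did: Slc14a1 at -2.06, which rests on a signal not above background, and Slc2a2 at -1.15. The median log2 ratio of the members was -0.013, beside 0.014 over all genes tested.

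**Figure D1:**
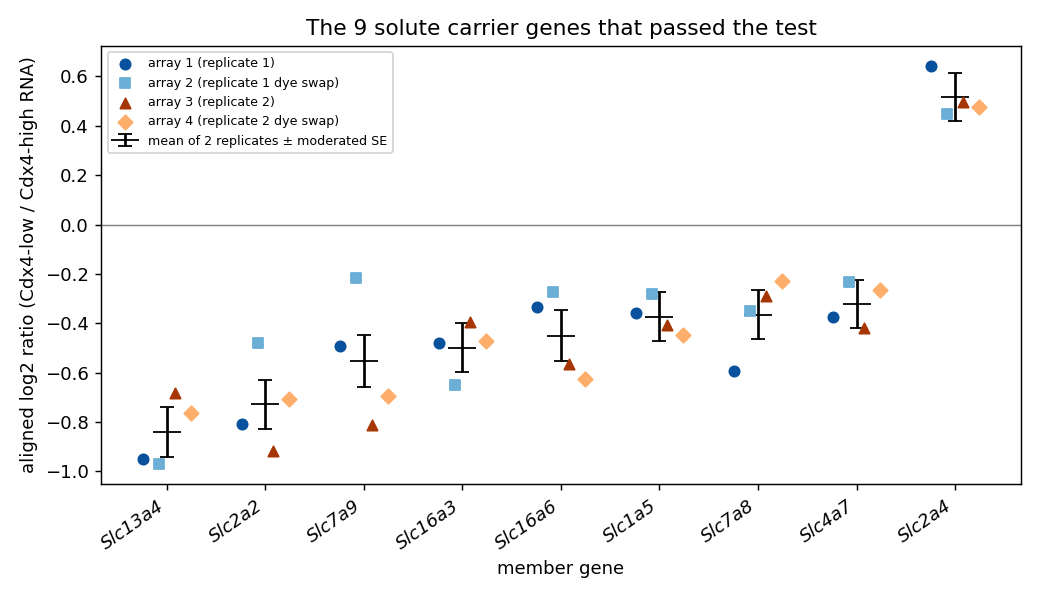
Aligned log2 ratio (vertical axis) of the 9 member genes that passed the test, with 1 point for each of the 4 arrays and a bar for the mean of the 2 labelled replicates with its moderated standard error. The points of the 8 lower genes lie below 0 on all 4 arrays, from -0.97 for Slc13a4 on array 2 to -0.22 for Slc7a9 on array 2, and those of Slc2a4 lie above 0.

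In this test, arrays 1 and 2 were averaged as replicate 1 and arrays 3 and 4 as replicate 2. Within each of these pairs the Cdx4-low RNA carries the same dye after alignment, so that dye bias widens the spread between the replicates and cancels in their mean. Averaging array 1 with array 3 and array 2 with array 4 instead balances the dyes within each pair. Each pair then holds 1 array of each labelled replicate, so the difference between those replicates leaves the error. The p-values of the exchange pairing therefore do not measure the spread between the labelled replicates. In this exchange pairing 20 members were lower, Slc14a1 among them, and 10 higher, Slc4a1 among them (limma). These are 22.2% and 11.1% of the 90. Among all genes, 19.7% were lower and 22.5% higher. The members' mean ratios are the same in both pairings and only the errors differ. The median standard error of the members was 0.0985 in the labelled replicates and 0.0506 in the exchange pairing. That all 9 genes named above passed in both is therefore no second test of them. Of the 90 members, 40 had 1 sign on all 4 arrays (44.4%, beside 44.5% of all genes). The standard errors and adjusted p-values given for single genes are those of the labelled replicates (n = 2) unless the exchange pairing is named.

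Glucose transporters of family 2 held the largest contrast within a family. Slc2a2 encodes GLUT2, a low-affinity glucose transporter of liver, intestine and pancreatic islets. Its log2 ratios on arrays 1 to 4 were -0.81, -0.48, -0.92 and -0.71. All 4 arrays were below 0, and array 2 was nearest to it. Slc2a2 was 1.66-fold lower (log2 -0.73 ± 0.10, moderated SE, limma adjusted p = 1.95e-05), and its second, dimmer probe was at -0.30 (limma adjusted p = 0.0759 over all probes). In the authors' deposited series table the ratio was larger, at log2 -1.15. Its first probe lies on chromosome 3, at 28919167 to 28919226 (mm8).

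Slc2a4 encodes GLUT4, the glucose transporter that insulin brings to the surface of muscle and fat cells. It stood at 0.64, 0.45, 0.50 and 0.48 on the 4 arrays, on a probe on chromosome 11 at 69758766 to 69758825 (mm8). Every array was above 0, array 1 most of all. Slc2a4 was 1.43-fold higher (log2 0.52 ± 0.10, limma adjusted p = 0.00107), and at log2 0.80 in the authors' series table. Of the other members of family 2, Slc2a3, the high-affinity neuronal-type transporter GLUT3, was at -0.28 ± 0.10 and did not pass (limma adjusted p = 0.09), although it passed in the exchange pairing (adjusted p = 4.01e-07). Both of its tested probes were below 0, at -0.28 and -0.22. Slc2a8, Slc2a5, Slc2a6 and Slc2a10 lay between 0.04 and 0.13, and Slc2a10 passed in the exchange pairing only. The 5 tested sodium-glucose and related cotransporters of family 5 lay between -0.034 and 0.096, with 0 called by limma and 0 at an unadjusted p under 0.05. The largest was Slc5a6, the sodium-dependent vitamin carrier for biotin and pantothenate, at 0.096 ± 0.10 (limma adjusted p = 0.692).

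The largest ratio of all members was that of Slc13a4, a sodium-coupled sulfate transporter. On arrays 1 to 4 it was -0.95, -0.97, -0.68 and -0.76, from a bright probe on chromosome 6 at 35198123 to 35198182 (mm8). The arrays of replicate 1 were lower than those of replicate 2, and none came near 0. Slc13a4 was 1.79-fold lower (log2 -0.84 ± 0.10, limma adjusted p = 2.58e-06). It was the 1 tested member of family 13, since the other 4 sulfate and carboxylate carriers of that family did not pass the filter on dim probes. Of family 10, the bile acid carrier family, 3 of 6 genes were tested, with 0 called by limma and 0 at an unadjusted p under 0.05, and Slc10a4 the farthest from 0 at -0.11 ± 0.10 (limma adjusted p = 0.638).

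Amino acid transporters of families 1, 3, 6 and 7 split into 3 lower genes and many near 0. Slc7a9 encodes the light chain of the renal and intestinal exchanger for cystine and basic amino acids. Its ratios were -0.49, -0.22, -0.81 and -0.69 (chromosome 7, 35172370 to 35172429, mm8). Array 2 was nearest to 0, and the arrays of replicate 2 were lower than those of replicate 1. Slc7a9 was 1.47-fold lower (log2 -0.55 ± 0.11, limma adjusted p = 0.00109). With replicate 1 alone it stood at -0.35 and with replicate 2 alone at -0.75, and in the authors' series table at -0.88. Its heavy-chain partner gene, Slc3a1, was above background on 1 array in each RNA and was not tested.

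Slc7a8 encodes LAT2, an exchanger of neutral amino acids. Its 4 values were -0.59, -0.35, -0.29 and -0.23 (chromosome 14, 53676505 to 53676564, mm8), lowest on array 1. It was 1.29-fold lower (log2 -0.37 ± 0.10, limma adjusted p = 0.0215). LAT2 pairs with the heavy chain encoded by Slc3a2, which was at -0.055 ± 0.10 (limma adjusted p = 0.856). Of the other light chains that use this heavy chain, Slc7a5 was at 0.023, Slc7a6 at -0.038 and Slc7a7 at -0.013, and Slc7a11 was above background on no array. The call of Slc7a8 ended without background correction (limma adjusted p = 0.0786), with the authors' series table (adjusted p = 0.0518) and with an intensity trend in the moderation (adjusted p = 0.0685).

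Slc1a5 encodes ASCT2, a sodium-dependent exchanger of glutamine and other neutral amino acids. On arrays 1 to 4 it read -0.36, -0.28, -0.41 and -0.45 (chromosome 7, 15956532 to 15956591, mm8), a narrow range below 0. Slc1a5 was 1.30-fold lower (log2 -0.37 ± 0.10, limma adjusted p = 0.0166), a call that ended without background correction (adjusted p = 0.0518) and with an intensity trend (adjusted p = 0.0619). Its close relative Slc1a4 was at 0.0014, with replicate 1 at 0.21 and replicate 2 at -0.21. Slc6a9, the glycine transporter GLYT1, was at 0.21 ± 0.10 and Slc6a8, the creatine transporter, at -0.22 ± 0.10. Neither passed (limma adjusted p = 0.257 and 0.222), while both passed in the exchange pairing (adjusted p = 0.000233 and 0.000107). Slc1a6, a glutamate transporter, was at 0.17 and passed in the exchange pairing only (adjusted p = 0.00275). Slc7a1 and Slc7a3, carriers of basic amino acids, lay at 0.017 and 0.037.

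Genes of the amino acid response, which follow the transcription factor Atf4 and share several amino acid carriers as targets, were set beside these. Of 16 tested, limma called 0 in the labelled replicates, where 1 was lower at an unadjusted p under 0.05, and 4 lower and 1 higher in the exchange pairing. Their median was -0.086, and Asns, asparagine synthetase, stood at -0.088 (limma adjusted p = 0.724).

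Monocarboxylate transporters of family 16 carry lactate, pyruvate, ketone bodies and aromatic amino acids. In the labelled replicates 2 of 9 tested genes were lower and 0 higher, and 7 of 9 were lower in the exchange pairing, with a family median of -0.147. Over all genes tested, 4.42% were lower in the labelled replicates and 19.7% in the exchange pairing. Slc16a3 encodes MCT4, which exports lactate from glycolytic cells. It was at -0.48, -0.65, -0.39 and -0.47 on the 4 arrays (chromosome 11, 120774799 to 120774858, mm8), below 0 on all, most on array 2. Slc16a3 was 1.41-fold lower (log2 -0.50 ± 0.10, limma adjusted p = 0.00157).

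Slc16a6 encodes MCT7, a ketone body exporter. It was at -0.33, -0.27, -0.56 and -0.63 (chromosome 11, 109268834 to 109268893, mm8), lower in replicate 2 than in replicate 1. Slc16a6 was 1.37-fold lower (log2 -0.45 ± 0.10, limma adjusted p = 0.00551). Its second probe, much dimmer, was at -0.11 (limma adjusted p = 0.633 over all probes), and the call ended without background correction (adjusted p = 0.0506). The 5 members that passed in the exchange pairing alone were Slc16a1, Slc16a9, Slc16a13, Slc16a11 and Slc16a10, at -0.26, -0.16, -0.15, -0.14 and -0.12. Slc16a8 was at 0.056 and did not pass in either pairing.

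Slc16a1, which encodes MCT1, differed between the labelled replicates. Its ratios were -0.52 and -0.54 on arrays 1 and 2 and 0.02 and 0.02 on arrays 3 and 4. A second bright probe for the same gene was at -0.21, -0.18, -0.26 and -0.33, mean -0.25, and did not show this split. The dimmest of the 3 tested probes was at -0.078. MCT1 and MCT4 reach the membrane with the partner protein basigin, and MCT2 prefers embigin. The basigin gene Bsg was at 0.10 ± 0.12 (limma adjusted p = 0.738), with arrays 1 and 2 at -0.28 and -0.21 and arrays 3 and 4 at 0.45 and 0.44. Emb, the embigin gene, was higher at 0.33 ± 0.10 (limma adjusted p = 0.0358), whereas Slc16a7, the MCT2 gene, was above background on no array.

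**Figure D2:**
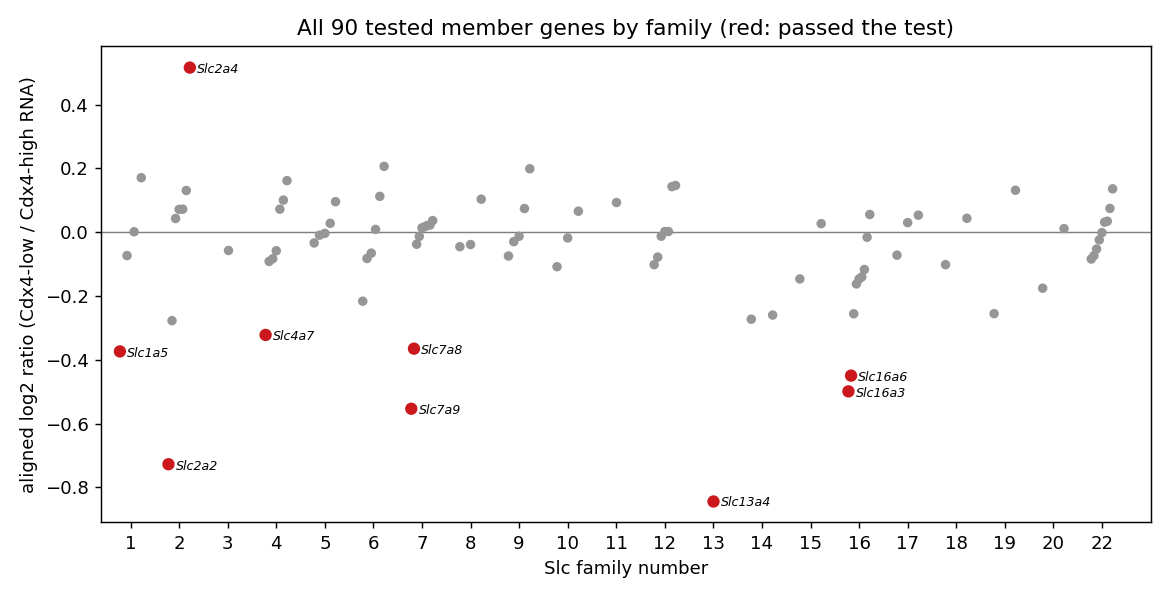
Aligned log2 ratio (vertical axis) of each of the 90 tested member genes, 1 point a gene, arranged by family number (horizontal axis), with genes that passed the test in red. Families 2, 7, 13 and 16 hold the 5 lowest genes, from -0.84 for Slc13a4 to -0.45 for Slc16a6, and families 5, 8, 12 and 22 stay within 0.15 of 0.

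Acid, base and inorganic ion carriers of families 4, 8, 9, 12 and 20 had 1 lower and 0 higher gene of 24 tested. The share lower is near that over all genes tested, of which 4.42% were lower and 3.25% higher. Slc4a7 encodes NBCn1, an electroneutral sodium bicarbonate cotransporter. Its ratios of -0.37, -0.23, -0.42 and -0.26 were all below 0 and close together. The probe is split over chromosome 14 between 13575487 and 13579615 (mm8). Slc4a7 was 1.25-fold lower (log2 -0.32 ± 0.10, limma adjusted p = 0.0417), and its second tested probe was at -0.29 (limma adjusted p = 0.0872 over all probes). Its remaining probe, above background in both RNAs on 3 arrays and so not tested, ran the other way, at 0.35, 0.17 and 0.10 on arrays 2 to 4. This was the weakest call: it ended without background correction (adjusted p = 0.0704), with the series table (0.0796), with the stricter filter on dim probes (0.0502), with an intensity trend (0.1) and with every probe tested on its own (0.0518).

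Slc4a1, the anion exchanger band 3 of red cells, was at 0.16 ± 0.10 (limma adjusted p = 0.403) and passed in the exchange pairing (adjusted p = 0.00483). In the authors' series table it stood at 0.69 and passed (limma adjusted p = 0.00584). Its dim probe was above background on all 4 arrays in the Cdx4-low RNA and on 3 in the Cdx4-high RNA. Because the gene entered the test only through the RNA in which it is brighter, these p-values do not support a change. In family 9, Slc9a3r2, a scaffold that binds the sodium-proton exchanger NHE3, was at 0.20 ± 0.10 (limma adjusted p = 0.271, and 0.000409 in the exchange pairing). The other scaffold, Slc9a3r1, was at -0.29 and -0.18 on arrays 1 and 2 and at 0.43 and 0.34 on arrays 3 and 4. The exchanger gene Slc9a8 split in the same way, at -0.37, -0.22, 0.21 and 0.26. Pdzk1, another scaffold that binds carriers at the apical membrane, was lower at -0.49 ± 0.10 (limma adjusted p = 0.0016).

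Among cation-chloride cotransporters of family 12, Slc12a8 was the farthest from 0, at 0.15 ± 0.10 (limma adjusted p = 0.466). Slc12a5, the neuronal potassium-chloride cotransporter, was at 0.14. Both passed in the exchange pairing (adjusted p = 0.0115 and 0.014). Slc20a1, the phosphate carrier PiT1, was at -0.18 ± 0.10 (limma adjusted p = 0.363, and 0.00204 in the exchange pairing), with its other probe at 0.024. The 3 sodium-calcium exchangers lay between -0.045 and 0.10, the highest being Slc8a2 (limma adjusted p = 0.653). The sodium pump sets the gradient on which many of these carriers depend. Of its subunit genes, Atp1b1 was lower at -0.44 ± 0.10 (limma adjusted p = 0.00541), and Atp1b3 was at 0.073.

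Both urea transporters of family 14 were below 0 without passing, though Slc14a2 had an unadjusted p under 0.05 and passed in the exchange pairing (limma). Slc14a2 read 0.04, 0.02, -0.62 and -0.53, so that replicate 1 was near 0 and replicate 2 was not (-0.27 ± 0.12, limma adjusted p = 0.174), and its second probe was at 0.029. Slc14a1, the urea transporter of red cells and kidney vessels, was at -0.32, -0.13, -0.31 and -0.28. Slc14a1 was not well above background on any array in the Cdx4-low RNA and was above it on all 4 in the Cdx4-high RNA. Set against that background-level signal, the ratio was 1.20-fold lower in the Cdx4-low RNA, which gives no size for a change. Slc14a1 did not pass (limma adjusted p = 0.12). It passed in the exchange pairing (adjusted p = 2.33e-06) and, at -2.06, in the authors' series table (adjusted p = 7.33e-05). Because the gene entered the test through the RNA in which it is brighter and its other side is background, these p-values do not support a change.

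Vitamin, peptide, metal and organic ion carriers gave 0 calls by limma in the labelled replicates, with Slc19a2 the 1 gene among them at an unadjusted p under 0.05. Slc19a2, a thiamine transporter, was at -0.26 ± 0.10 (limma adjusted p = 0.129), and Slc19a1, the reduced folate carrier, at 0.13. These opposite values passed in the exchange pairing (adjusted p = 3.57e-06 and 0.0251). Slc15a2, the peptide transporter PEPT2, was at -0.15 (limma adjusted p = 0.465, and 0.0115 in the exchange pairing), and Slc15a4 was at 0.20 and 0.27 on arrays 1 and 2 and -0.20 and -0.16 on arrays 3 and 4. Slc11a2, the iron carrier DMT1, was at 0.095 (limma adjusted p = 0.692) on the brightest of 3 tested probes, the others being at 0.12 and 0.023.

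All 9 tested organic ion carriers of family 22 lay between -0.084 and 0.14. The highest was Slc22a12, the urate transporter, at 0.14 ± 0.10 (limma adjusted p = 0.54, and 0.0201 in the exchange pairing), with 0.27 and 0.32 on arrays 1 and 2 and -0.07 and 0.02 on arrays 3 and 4. Vesicular carriers were near 0 as well: Slc17a8, a vesicular glutamate transporter, was at -0.072 (limma adjusted p = 0.786). Slc18a1, a vesicular monoamine transporter, was at -0.10 (limma adjusted p = 0.664).

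**Figure D3:**
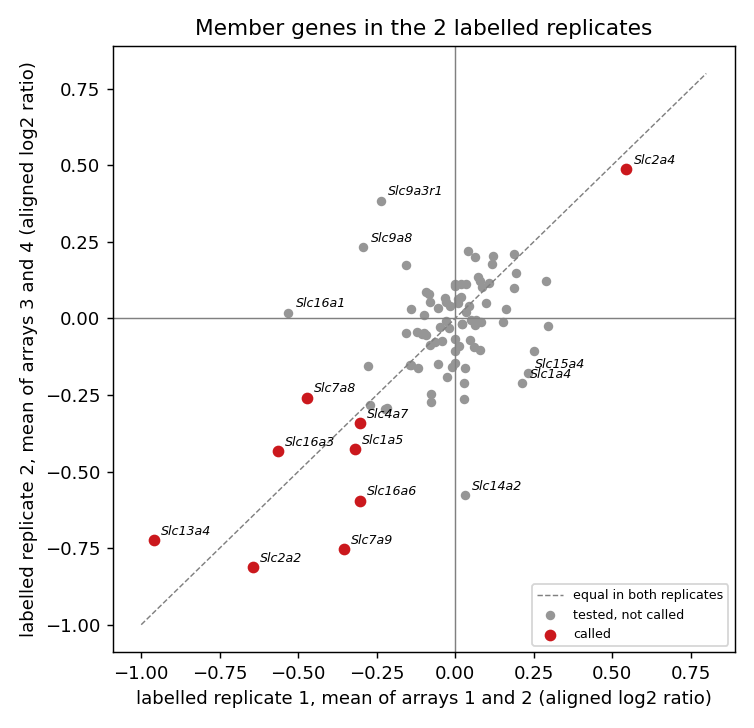
Aligned log2 ratio of the 90 tested members in labelled replicate 1 (horizontal axis, mean of arrays 1 and 2) and labelled replicate 2 (vertical axis, mean of arrays 3 and 4), with called genes in red. Each called gene has the same sign in both replicates, with the widest gap for Slc7a9 (-0.35 and -0.75), whereas Slc16a1 (-0.53 and 0.02), Slc14a2 (0.03 and -0.58) and Slc9a3r1 (-0.24 and 0.38) lie far from it.

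The labelled replicates differed by 0.4 or more (log2) in 6 members, singled out after their values were seen: Slc9a3r1, Slc14a2, Slc16a1, Slc9a8, Slc1a4 and Slc15a4. The median absolute difference between replicates was 0.093 over the members and 0.133 over all genes. After alignment the replicate number and the dye of the Cdx4-low RNA change together, so a dye effect and a replicate effect on these 6 genes cannot be told apart. None of the 6 was called in the labelled replicates. The brightest probes of Slc14a2 and Slc16a1 passed in the exchange pairing (limma adjusted p = 6.42e-07 and 3.39e-06), where the difference between replicates does not enter the error.

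Markers of visceral endoderm moved with the lower carriers. Of 20 tested markers, 19 were lower and 0 higher, with a median of -0.667 and a range from -2.04 for Afp to -0.29 for Fga. Their summed signal was 66200 to 68900 in the Cdx4-low RNA and 126000 to 137000 in the Cdx4-high RNA over the arrays (normalised intensity), and no array overlapped. The apical receptor genes Cubn, Lrp2 and Amn, at -1.12, -0.86 and -0.65, were among them. Of the other lists, endothelial markers were lower in 5 of 14, with summed signals of 16100 to 16800 in the Cdx4-low RNA and 21500 to 22900 in the Cdx4-high RNA. Primitive erythroid genes were higher in 3 of 6 (6570 to 7100 against 3660 to 4040), with Gata1 and Klf1 among those too dim to test. Somite genes were higher in 4 of 6 (6940 to 7830 against 5100 to 5410) and neural plate genes in 3 of 4 (3180 to 3520 against 2100 to 2290). Of the trophoblast and decidua genes, 6 of 10 listed were on the arrays and 4 were tested, with Tpbpa and Gcm1 too dim. Plac1 was lower, while Cited1 at -0.23, Hand1 at 0.24 and Elf5 at 0.25 did not pass. Their median was 0.004, and their summed signal was 21800 to 26600 against 26700 to 28800. The part of these shifts in the carriers' values was not tested. Of the markers that define the tail bud, all 12 were above background, among them T, Tbx6 and Wnt3a, with 2 higher and 2 lower (35500 to 39800 against 36800 to 37700). The 2 higher ones were Wnt3a and Lfng, and the 2 lower ones were Cyp26a1 and Cdx2. The median of the 12 was 0.166, and in the exchange pairing 8 were higher and 2 lower (limma). Since Cdx2 is itself altered in the mutant, its ratio is no measure of tail bud content.

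**Figure D4:**
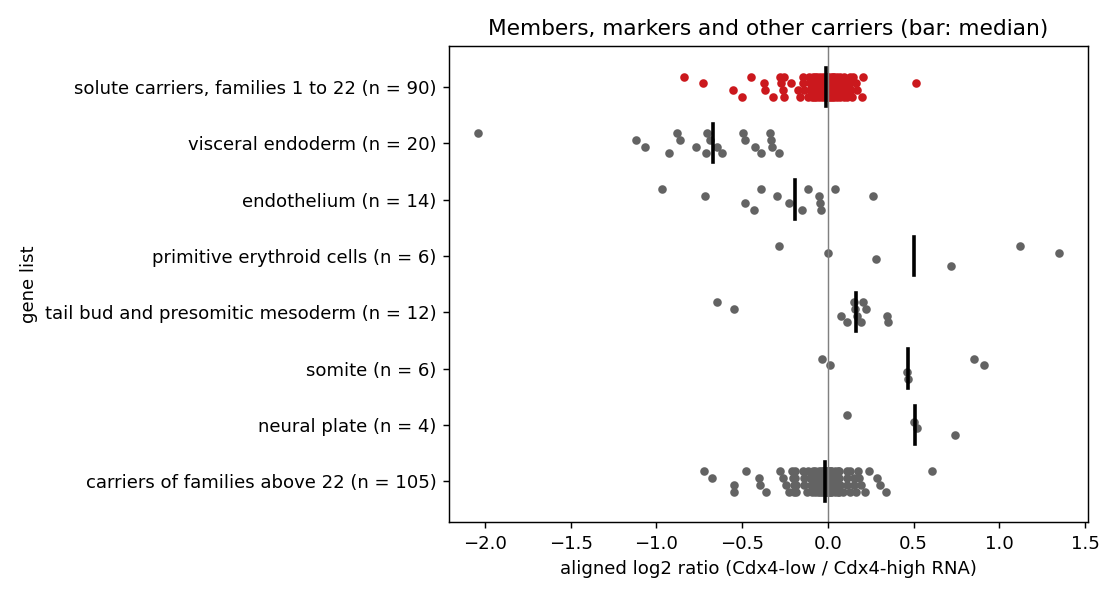
Aligned log2 ratios (horizontal axis) of the tested genes of each list, 1 point a gene, with a bar at the median and the number of genes beside the name. The median of the members lies at -0.013 and that of carriers of families above 22 at -0.015, while that of visceral endoderm markers lies at -0.667.

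Carriers of families above 22 and the Slco genes, 152 on the arrays and 105 tested, gave 8 lower and 2 higher genes in the labelled replicates, and 25 and 14 in the exchange pairing. The shares over all genes tested were 4.42% lower and 3.25% higher in the labelled replicates, and 19.7% and 22.5% in the exchange pairing. The median of these carriers was -0.015. The 5 farthest from 0 were Slc26a4, the anion exchanger pendrin (-0.72 ± 0.11, limma adjusted p = 5.52e-05), Slc25a17, a peroxisomal carrier (-0.68), Slc38a4 (-0.55) and Slc38a5 (0.61), both carriers of neutral amino acids, and Slc39a4, the zinc importer ZIP4 (-0.55). Whether these counts differ from those of families 1 to 22 was not tested.

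Promoter sequence, from 250 bases before to 50 after a gene's start, was read from RefSeq (GRCm38.p6) for the members that passed, and 6 of the 9 had an entry. Caudal proteins are known to bind AT-rich letters with the core TTTAT. The letters TTTATG and TTTATA were searched on both strands, the second of which also holds the letters of a TATA box. They occurred in 1 of 7 windows of the called members, in 12.5% of 88 windows of tested members and in 22.8% of all 32851 windows. This is a description of these letters in these windows only. The promoters of the 2 genes with the lowest ratios held none, and that of Slc4a7 held both, starting 58 and 29 bases before the start, in capitals. They are shown 5′ to 3′ on the gene's strand, as chr6:35308077-35308376 (minus strand), chr3:28697653-28697952 (plus) and chr14:14718534-14718833 (plus).
Slc13a4: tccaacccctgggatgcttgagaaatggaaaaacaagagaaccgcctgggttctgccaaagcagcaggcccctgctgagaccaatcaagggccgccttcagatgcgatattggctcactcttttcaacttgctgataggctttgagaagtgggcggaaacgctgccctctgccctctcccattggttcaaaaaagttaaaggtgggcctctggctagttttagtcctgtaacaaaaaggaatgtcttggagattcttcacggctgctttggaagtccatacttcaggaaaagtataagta
Slc2a2: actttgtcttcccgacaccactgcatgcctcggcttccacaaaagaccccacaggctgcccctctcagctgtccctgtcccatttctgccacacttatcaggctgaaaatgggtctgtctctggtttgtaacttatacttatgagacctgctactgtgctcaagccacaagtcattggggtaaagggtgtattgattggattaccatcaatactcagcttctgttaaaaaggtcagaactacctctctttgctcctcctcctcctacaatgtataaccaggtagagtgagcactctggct
Slc4a7: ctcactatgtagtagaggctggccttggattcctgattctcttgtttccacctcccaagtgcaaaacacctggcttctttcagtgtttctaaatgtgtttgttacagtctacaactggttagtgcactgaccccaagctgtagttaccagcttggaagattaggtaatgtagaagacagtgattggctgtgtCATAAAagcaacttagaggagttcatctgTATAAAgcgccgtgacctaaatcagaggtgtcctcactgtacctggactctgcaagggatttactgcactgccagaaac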

How the data were processed

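Feature Extraction 9.5.3 (Agilent) is named in the submitters' processing notes. The deposited scanner files hold, per the file headers, the intensity of each spot and its local background in Cy3 and Cy5, and a log10 ratio of Cy5 over Cy3. The authors' series table holds log10 ratios. Within 1e-05 it equalled the scanner ratio for 100% of spots on arrays 1 and 3 and its negative for 100% on arrays 2 and 4, with a median of 0 in each column, so its direction follows the labels and no centring was added.

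Intensities were corrected by normexp (offset 50) and normalised by loess within arrays in limma 3.58.1 (R 4.3.3), where controls had weight 0. Controls, and 103 to 167 outlying spots an array, did not enter the fit. No member probe was saturated. The share of spots well above background ran from 50.6% to 64.9% over arrays and dyes. Spots of 1 probe were averaged, and each gene name was represented by its brightest tested probe. Arrays were aligned on Cdx4, which sets the genotype of 2 arrays against their labels, averaged by labelled replicate number and fitted with lmFit and eBayes (24.7 prior degrees of freedom, 14921 genes), with Benjamini-Hochberg adjustment at 0.05. The 2 replicates limit the precision of every value, and the printed errors are moderated over genes. The fit was run on simulated data with 2-fold changes and the same spread for every gene. Smaller changes, such as those of the members, were not covered by it. All 266 member probes matched a RefSeq gene. Slc6a20 is now Slc6a20b and Slc9a10 is now Slc9c1. Positions are those of the files on mm8, and exon or untranslated parts were not read. Named genes were all called members, the member farthest from 0 in each family without a call and the 5 farthest carriers of families above 22. Others named were chosen after their values were seen. Members and lists were chosen with earlier results of these data known. A few genes are not reported here by name. Alternatives are given in the closing section.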

Additional observations from a re-analysis of the deposited data

Results flagged for a closer look

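Slc14a1 had 1 array far from the other 3: its aligned log2 ratio on array 2 was -0.13, against -0.32 to -0.28 on arrays 1, 3 and 4. The gene was not well above background in the Cdx4-low RNA on any array, so background sets one side of each ratio. Chance alone marks about 1 in 20 groups, and 41 named members were examined over their 4 arrays.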

How the results depend on the processing

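With signs as labelled, limma called 0 members higher and 0 lower (1 of the tested members had an unadjusted p under 0.05, and all 9 calls ended) and 15 genes in all. Slc16a3 was then at 0.0225, Slc4a7 at 0.0031, Slc26a4 at 0.0255, Slc25a17 at 0.0139, Slc39a4 at 0.0175, Slc25a35 at 0.0613 and Slc38a5 at -0.0177, each with its sign turned. Median centring instead of loess left 0 members called by limma in either direction (1 at an unadjusted p under 0.05) and 10 genes in all, and all 9 calls ended. The median was then 0.11 for members and 0.277 for all genes, with Slc16a3 at 0.0919 and Slc4a7 at 0.0522, above 0 but below that median. Without a filter on dim probes limma called 0 members in either direction (6 higher and 15 lower at an unadjusted p under 0.05) and 14 of 27845 genes, with 3.27 prior degrees of freedom in place of 24.7, and all 9 calls ended. Calls rose to 10 higher and 20 lower members (6289 genes) in the exchange pairing, 15 and 26 (8240 genes) in the third pairing of arrays (1 with 4, 2 with 3), and 13 and 22 (6950 genes) with a dye term over 4 arrays. The 9 called members passed in all 3 of these, which keep the members' mean ratios and change only the error. Without background correction 4 members were lower (457 genes, median -0.033), and Slc2a4 stayed higher. The authors' deposited log ratios gave 2 higher and 8 lower (1754 genes, median -0.038), gaining the dim Slc4a1, Slc14a1 and Slc6a4 (-0.58) and losing Slc7a8 and Slc4a7. Each gained gene entered the test only through the RNA in which it is brighter, so its p-value does not support a change. With an intensity trend 5 were lower, and Slc2a4 stayed higher. The stricter filter gave 1 higher and 7 lower, as did every probe on its own. Without 1 labelled replicate no test was possible, and the members' median ranged from -0.0233 to -0.0011, with the 9 called genes keeping their sign. The causes of these differences were not tested.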
